A study of Mus musculus with 6 samples.

Results

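The genes described here are 39 marker genes of the tissues that surround the newborn lens. They were taken by symbol from the 22298 entries of the expression table. The markers are 16 of endothelium, 8 of pericytes and smooth muscle (together, mural cells), 8 of periocular mesenchyme and 7 of macrophages, and all 39 were in the table. Lenses labelled Fyco1-/- were compared with WT lenses, both from C57BL/6 mice at postnatal day 0, with 3 libraries of total RNA per genotype. Each library is a biological replicate pooled from 10 lenses, and the labels name neither the sex of the pups nor how the Fyco1 allele was made. FYCO1 is an adaptor protein through which autophagosomes are carried along microtubules, and the series asks what autophagy does in the forming lens. The pools are called A, B and C within each genotype. P-values measure the spread between these pools, since nothing more is said of which animals went into each.

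At birth the mouse lens is wrapped in a transient vessel network, the hyaloid system with its tunica vasculosa lentis, which feeds the lens before birth and regresses afterwards. Its endothelial tubes are covered by pericytes, neighboured by mesenchyme derived largely from the neural crest, and visited by macrophages that take part in its regression. The lens itself holds only epithelium and fibre cells, so most of the markers belong to tissue on its surface, while Pdgfra is also expressed by lens epithelium.

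Every level is an FPKM value (fragments per kilobase of gene, scaled to the mapped reads of the library), a unit already divided by gene length. The table holds no read counts. The steps between small values place the libraries at an estimated 18.74 to 19.44 M reads in Fyco1-/- and 17.02 to 19.99 M reads in WT. The lens label matched its markers, since Cryaa, an alpha-crystallin, stood between 117880 and 122150 FPKM in Fyco1-/- and between 114750 and 119180 FPKM in WT. Fyco1 itself had 4.61, 4.59 and 4.87 FPKM in Fyco1-/- libraries A, B and C and 5.40, 5.21 and 5.11 FPKM in WT. Its limma adjusted p was 0.273, so the gene's summed level does not check the genotype labels. The WT B library stood apart in skeletal muscle RNA. The summed level of 7 skeletal muscle genes was 2.93, 2.96 and 4.85 FPKM in Fyco1-/- and 8.78, 43.1 and 6.82 FPKM in WT. Every WT library thus lay above every Fyco1-/- library in this sum, with WT B far above the rest. WT A was highest for most endothelial markers, and values without WT A or WT B are given beside several results below.

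Of the 39 markers, 32 had a mean of at least 0.5 FPKM and were tested. Calls required a limma p under 0.05 after Benjamini-Hochberg adjustment over all 12001 tested genes. Log2 fold changes are Fyco1-/- over WT on log2(FPKM + 0.5), a scale that understates the change of low genes. Only 1 of the 32 tested markers was called, Plvap, which fell in Fyco1-/- lenses to a mean of 3.12 FPKM, against 4.72 FPKM in WT lenses. Among all tested genes 8.43% were called, 5.02% as lower and 3.42% as higher. The share of markers called was 3.1%, but it rests on 1 gene. The 602 lower and 410 higher calls became 472 and 626 under median-of-ratios scaling, while Plvap was called lower in both. In the authors' deposited DESeq2 results, described below, the order was reversed, with 14.7% of markers and 9.37% of all genes called. At an unadjusted p under 0.05 the markers numbered 9, of which 8 were lower, against 24.4% of all tested genes and 15.1% lower. The log2 fold change was below 0 for 23 markers and above 0 for 9, while 59.9% of all tested genes were below 0. The median over the tested markers was -0.13, against -0.04 over all tested genes, and it was -0.01 without WT A. In bulk RNA, fewer cells of a type and less RNA per cell cannot be told apart, which holds for every value below.

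None of the markers whose levels were separated by genotype, the called gene among them, is the most abundant of its class. Few markers hold that rank, so this is a description only. Plvap, Abcc9, Col1a1, Col3a1 and Foxc1 had all 3 Fyco1-/- values below all 3 WT values, as did 18.6% of tested genes. Erg and Pf4 had all 3 above, as did 11.1% of tested genes. With 3 libraries against 3, an exact permutation test of a single gene cannot give a p under 0.1, so the p-values rest on the limma model.

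**Figure D1:**
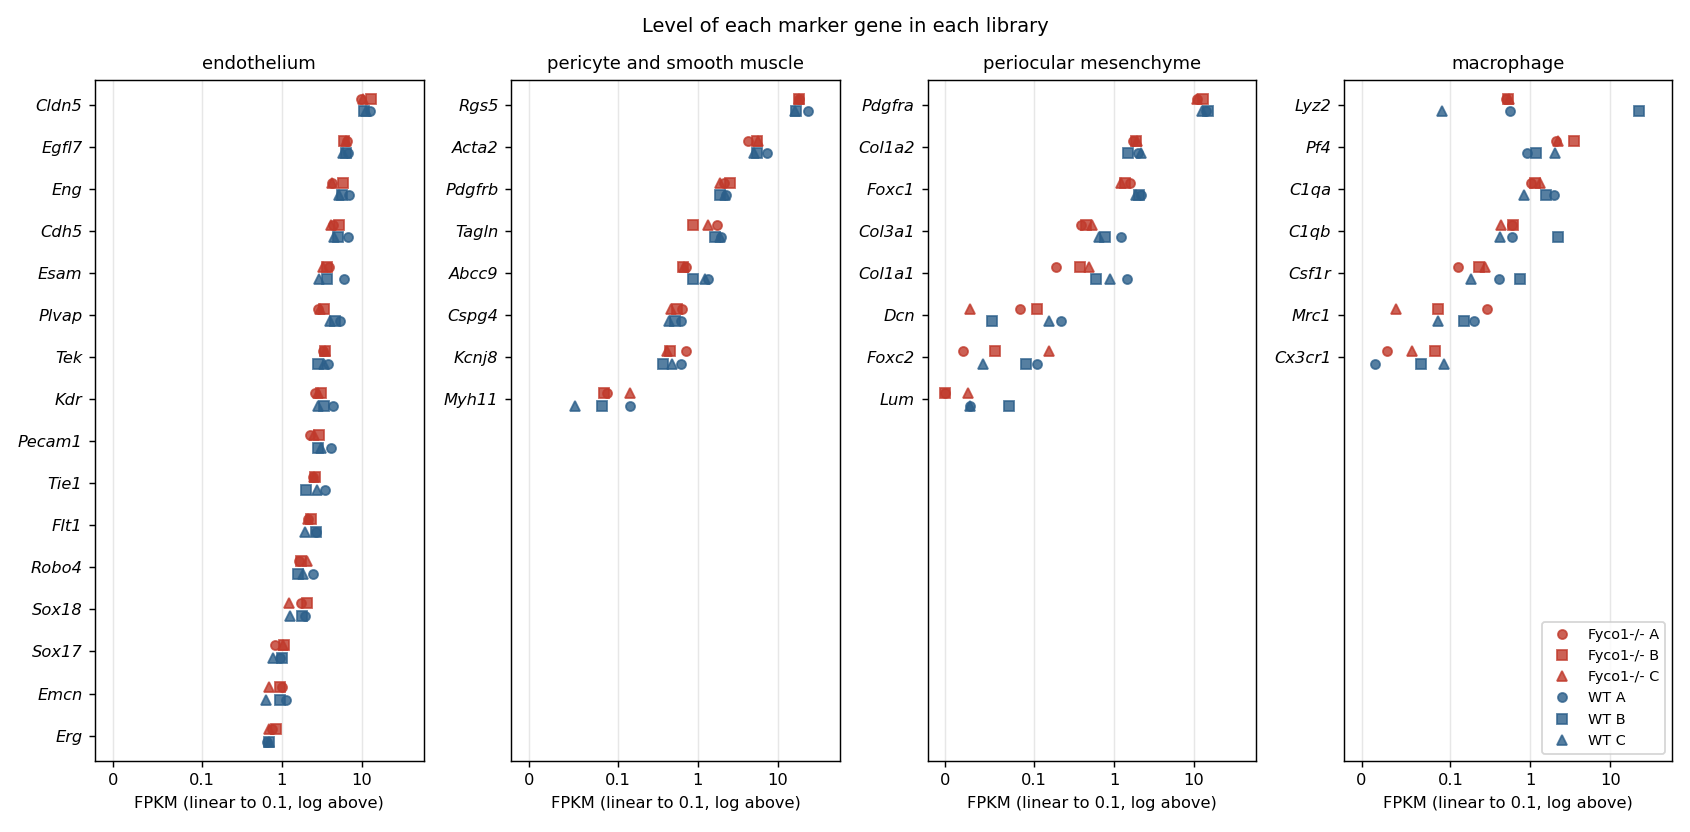
FPKM of each of the 39 markers in each library, by class and in order of mean level; the axis is linear up to 0.1 FPKM and logarithmic above, with Fyco1-/- in red above WT in blue and the pools A, B and C as circles, squares and triangles. Levels run from Rgs5 at 16.6 to 24.1 FPKM down to Lum at 0 to 0.072 FPKM, and Lyz2 in WT B stands at 23.1 FPKM.

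The start regions of 4 markers are shown, of which Abcc9 is a mural marker and the others are mesenchyme markers. No RefSeq start was found for Plvap or Col1a1. Col1a2 is the partner chain of Col1a1 and did not differ, while Col3a1, Abcc9 and Foxc1 were lower in every Fyco1-/- library. The sequences are from the RefSeq windows of 250 bases before the start on GRCm38.p6, without bases that GENCODE release M21 annotates as an exon of the gene. They read 5′ to 3′ on the gene's strand, which is plus for Col1a2 (chr6:4505370-4505492), Col3a1 (chr1:45311288-45311537) and Foxc1 (chr13:31806396-31806632) and minus for Abcc9 (chr6:142702316-142702524). Capitals mark the CCAAT box, the TATAAA box and the GC box GGGCGG on either strand, none of which overlap here.
Col1a2: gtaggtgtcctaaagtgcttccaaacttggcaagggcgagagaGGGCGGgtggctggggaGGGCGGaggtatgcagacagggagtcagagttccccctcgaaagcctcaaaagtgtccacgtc
Col3a1: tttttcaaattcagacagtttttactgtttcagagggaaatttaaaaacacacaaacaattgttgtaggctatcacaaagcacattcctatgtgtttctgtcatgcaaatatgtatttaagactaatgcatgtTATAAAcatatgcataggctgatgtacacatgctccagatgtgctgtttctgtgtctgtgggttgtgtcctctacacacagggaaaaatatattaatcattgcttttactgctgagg
Abcc9: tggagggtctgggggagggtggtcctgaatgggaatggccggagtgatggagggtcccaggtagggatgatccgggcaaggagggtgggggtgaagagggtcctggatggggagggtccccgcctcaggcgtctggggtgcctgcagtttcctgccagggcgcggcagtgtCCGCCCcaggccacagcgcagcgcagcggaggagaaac
Foxc1: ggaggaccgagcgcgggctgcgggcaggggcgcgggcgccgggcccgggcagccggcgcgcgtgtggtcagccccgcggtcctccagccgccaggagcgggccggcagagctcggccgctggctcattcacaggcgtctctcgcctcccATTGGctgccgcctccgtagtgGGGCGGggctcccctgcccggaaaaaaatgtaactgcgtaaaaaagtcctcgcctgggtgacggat
The Col1a2 stretch holds GGGCGG at 2 places, Col3a1 holds 1 TATAAA, Abcc9 holds 1 GGGCGG read on the other strand, and Foxc1 holds 1 CCAAT read on the other strand and 1 GGGCGG. Over all 32851 RefSeq starts, the 250 bases before the start held CCAAT in 33.9%, TATAAA in 12.4% and GGGCGG in 32.7%. The Col1a2 stretch lies within the gene's GENCODE span, between an exon of a longer transcript and the exon of the main one, whereas the others end just before the gene's first annotated base. The RefSeq window of Col1a2 runs on to position 4505617 of chr6, and the part left out holds 1 CCAAT. The stretches shown are 123 to 250 bases long, so the shares describe windows at least as long as these. These letters are a description of the windows and not of factor binding.

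Endothelial markers were detected in every library and, beyond Plvap, did not differ by genotype past the threshold. Their summed level was 50.8, 58.8 and 51.1 FPKM in Fyco1-/- and 70.8, 56.4 and 53.2 FPKM in WT. The groups overlapped, and WT A was the high library, with the top value for 11 of the 16 endothelial genes. The log2 ratio of the summed means was -0.17, and -0.03 without WT A. Log2 fold changes of single genes ran from -0.52 to 0.11, with 11 below 0 and 5 above and a median of -0.08.

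Plvap encodes the protein that forms the diaphragms of endothelial fenestrae and caveolae. Its level was 2.90, 3.41 and 3.05 FPKM in Fyco1-/- lenses and 5.46, 4.67 and 4.05 FPKM in WT lenses. No Fyco1-/- library reached the lowest WT library. The means were 3.12 ± 0.260 FPKM and 4.72 ± 0.707 FPKM (SD, n = 3 each), a ratio of 0.660, and the log2 fold change was -0.52 with a standard error of 0.11 (limma adjusted p = 0.0195). The call was lost without any one of Fyco1-/- A, Fyco1-/- C, WT A or WT B, and with no filter on low values, with adjusted p-values from 0.0525 to 0.0710, while the log2 fold change stayed between -0.53 and -0.42. Under the other alternatives on these values the adjusted p went down to 0.0143. The gene lies on chr8:71497765-71511752 on the minus strand (GRCm38, GENCODE release M21), overlaps no other gene's exons by 50 bases or more, and rests on an estimated 108 to 186 reads per library.

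Relative to the rest of its class Plvap was lower too, which is no separate test because Plvap itself was separated by genotype. As a percentage of the summed FPKM of the other 15 endothelial markers, it made up 6.04, 6.15 and 6.35% in Fyco1-/- and 8.35, 9.03 and 8.23% in WT. Within each genotype this share varied little, at 6.18 ± 0.158% and 8.54 ± 0.432% (SD, n = 3 each). WT A, whose endothelial sum was the highest, lay between WT B and WT C in this share.

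The most abundant endothelial markers did not pass the test. Cldn5, the main tight-junction claudin of endothelium, had 9.91, 13.2 and 10.5 FPKM in Fyco1-/- and 12.8, 10.7 and 11.3 FPKM in WT, with no separation of the groups. Its log2 fold change was -0.05, with a 95% interval from -0.30 to 0.19 (limma adjusted p = 0.814). Egfl7, a secreted factor made by endothelial cells, had 6.63, 6.12 and 6.38 FPKM in Fyco1-/- and 6.87, 6.44 and 5.79 FPKM in WT. The interval of its log2 difference ran from -0.18 to 0.19, and part of its reads may belong to overlapping exons of Agpat2 or Gm20532.

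Eng, a co-receptor for TGF-beta and BMP ligands, had 4.23, 5.86 and 4.32 FPKM in Fyco1-/- and 6.91, 5.77 and 5.26 FPKM in WT. Fyco1-/- B lay among the WT values (log2 -0.29, limma adjusted p = 0.211), and the log2 fold change was -0.19 without WT A. Pecam1, the adhesion molecule of endothelial junctions, had 2.30, 2.92 and 2.57 FPKM in Fyco1-/- and 4.16, 2.84 and 3.15 FPKM in WT. Its groups overlapped at the B pools, with a log2 fold change of -0.32 (unadjusted p = 0.0420, limma adjusted p = 0.185), and of -0.18 without WT A.

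The angiogenic receptors did not pass the test either. Kdr and Flt1, the signalling and decoy receptors for VEGF-A, had log2 fold changes of -0.25 and -0.13, and the angiopoietin receptor Tek and its relative Tie1 had 0.03 and -0.08. Cdh5, the cadherin of endothelial junctions, had -0.22. Of the transcription factors, the markers Sox17, Sox18 and Erg had 0.07, 0.01 and 0.11, whereas Fli1, Sox7 and Ets1, from the further endothelial genes described below, had -0.30, -0.25 and -0.10, and the cofactor Lmo2 had 0.21. None of them passed the test, and only Fli1 and Erg had groups that did not overlap. Erg had 0.768, 0.851 and 0.696 FPKM in Fyco1-/- and 0.648, 0.690 and 0.689 FPKM in WT, so its groups were separated by less than the spread within Fyco1-/-, and its limma adjusted p was 0.671. Esam, Emcn and Robo4 had log2 fold changes between -0.14 and -0.02.

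**Figure D2:**
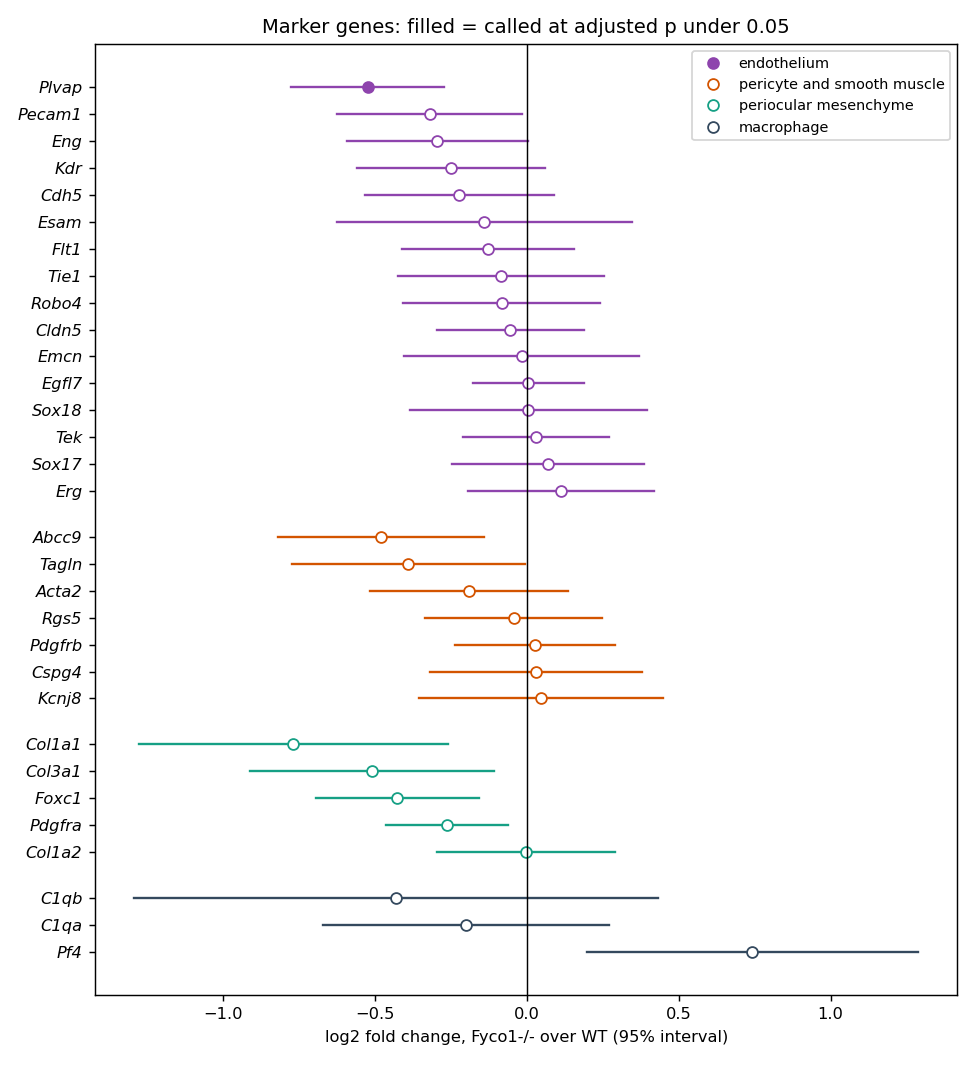
Log2 fold change of Fyco1-/- over WT for 31 of the 32 tested markers, by class, with 95% intervals from limma; Lyz2 is left out because its interval runs from -5.57 to 3.05. Plvap is the 1 filled point, 4 of the 5 mesenchyme points lie below 0 with Col1a2 at 0.00, and Pf4 is highest at 0.74.

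Of 26 further endothelial genes, 22 were tested and none was called by limma, and the median log2 fold change was -0.13. An unadjusted p under 0.05 was found for 4 of the 22, all of them lower. Of all tested genes 24.4% had such a p, and 15.1% had it and were lower. The smallest p-values belonged to Esm1, a secreted proteoglycan of endothelial tip cells, and Vwf, the clotting factor stored in endothelial cells. Esm1 had 1.01, 1.15 and 0.953 FPKM in Fyco1-/- and 1.37, 1.66 and 1.62 FPKM in WT (log2 -0.41, limma adjusted p = 0.0740). Vwf had 2.17, 1.49 and 1.48 FPKM in Fyco1-/- and 2.79, 2.24 and 2.58 FPKM in WT (log2 -0.47, limma adjusted p = 0.0745). Neither gene's groups overlapped, and Vwf passed at 0.0218 without Fyco1-/- A, with adjusted p-values up to 0.206 under the other limma alternatives. In the authors' deposited table Esm1 had an adjusted p of 0.325 and Vwf of 0.00771.

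The total of the mural cell markers overlapped between the genotypes and was made up mostly of Rgs5. Their summed level was 28.7, 28.9 and 29.1 FPKM in Fyco1-/- and 38.4, 28.0 and 28.0 FPKM in WT. The 3 Fyco1-/- libraries lay between WT A above and WT B and C below, and the log2 ratio of the summed means was -0.12, and 0.05 without WT A. Without Rgs5, an alternative chosen after seeing the data, the sums were 10.3, 10.6 and 10.7 FPKM in Fyco1-/- and 14.3, 11.0 and 11.4 FPKM in WT. These sums did not overlap, and their log2 ratio was -0.22. None of the 7 tested mural markers was called by limma, and their median log2 fold change was -0.04. An unadjusted p under 0.05 was found for 2 of them, both lower, where 24.4% of all tested genes had such a p and 15.1% were lower.

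Rgs5, a regulator of G protein signalling that marks pericytes, was the most abundant of all 39 markers. It had 18.5, 18.3 and 18.5 FPKM in Fyco1-/- and 24.1, 17.0 and 16.6 FPKM in WT. The Fyco1-/- libraries had a coefficient of variation of 0.715%, WT A was high, and the log2 fold change was -0.04 (limma adjusted p = 0.875), or 0.13 without WT A. Acta2, smooth muscle actin, had 4.26, 5.55 and 5.70 FPKM in Fyco1-/- and 7.36, 5.56 and 5.06 FPKM in WT (log2 -0.19, limma adjusted p = 0.467), with the groups overlapping and a log2 fold change of -0.04 without WT A. Pdgfrb, the receptor that recruits pericytes to vessels, had 2.14, 2.50 and 1.91 FPKM in Fyco1-/- and 2.28, 1.92 and 2.19 FPKM in WT. Its 95% interval on the log2 scale ran from -0.24 to 0.29 around 0.03.

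Abcc9 was the mural marker that parted from Rgs5. It encodes the sulfonylurea receptor that joins the pore subunit Kcnj8 in the ATP-sensitive potassium channel of pericytes. Abcc9 had 0.718, 0.645 and 0.663 FPKM in Fyco1-/- and 1.35, 0.865 and 1.24 FPKM in WT. All 3 Fyco1-/- values were below the lowest WT value, and the ratio of the Fyco1-/- mean to the WT mean was 0.586. The log2 fold change was -0.48 with a standard error of 0.15, and it missed the threshold with a limma adjusted p of 0.0861, and of 0.0542 to 0.242 under the alternatives. In the authors' deposited table its adjusted p was 0.0110.

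As a percentage of Rgs5, Abcc9 stood at 3.89, 3.54 and 3.58% in Fyco1-/- and 5.59, 5.08 and 7.49% in WT. This ratio did not overlap either, which is no separate test given the separation of Abcc9. Its channel partner Kcnj8 had 0.703, 0.445 and 0.409 FPKM in Fyco1-/- and 0.615, 0.364 and 0.472 FPKM in WT, with overlap (log2 0.05, limma adjusted p = 0.903). A stretch of up to 162 bases of Abcc9 is near-identical to transcripts of 75 other genes, so some of its reads may be shared. Tagln, an actin-binding protein of smooth muscle, had 1.74, 0.872 and 1.36 FPKM in Fyco1-/- and 1.95, 1.66 and 1.92 FPKM in WT, with Fyco1-/- A among the WT values. Its log2 fold change was -0.39 (unadjusted p = 0.0470, limma adjusted p = 0.198), and 1241 bases of its exons overlap Pcsk7 or Gm48529. Cspg4, the NG2 proteoglycan of pericytes, had a log2 fold change of 0.03. Myh11, the myosin of mature smooth muscle, was below 0.15 FPKM in every library and was not tested.

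Of 15 further mural genes, 8 were tested and 1 (12.5%) was called, as lower, where 8.43% of all tested genes were called and 5.02% as lower. Ndufa4l2, a mitochondrial protein found in pericytes and induced by hypoxia in many cells, had 1.22, 1.23 and 1.21 FPKM in Fyco1-/- and 4.02, 2.02 and 2.57 FPKM in WT. It fell, with a log2 fold change of -0.93 (limma adjusted p = 0.0150), and the Fyco1-/- libraries lay close together and below every WT library. The call was lost without Fyco1-/- C (0.0545) and with no filter on low values (0.0550), and the adjusted p was as low as 0.00635 without WT B. Higd1b, another pericyte marker, had the opposite sign at 0.39 without passing (limma adjusted p = 0.159).

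**Figure D3:**
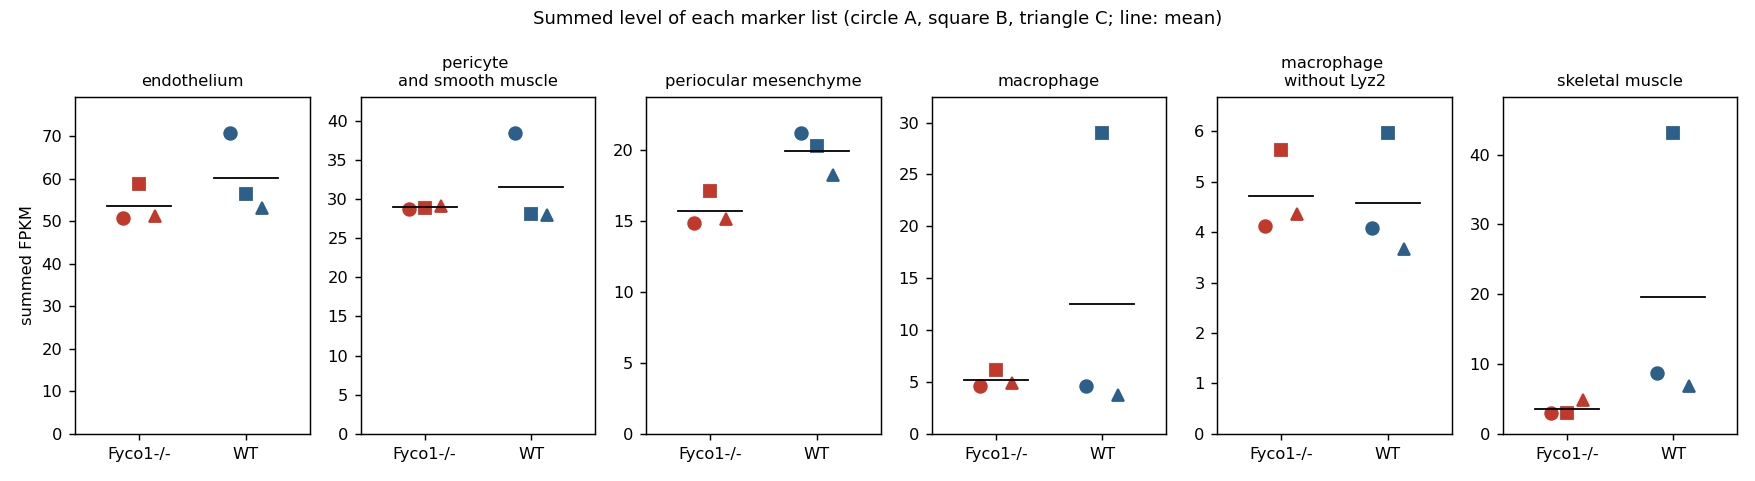
Summed FPKM of the 4 marker classes, of the macrophage class without Lyz2 and of 7 skeletal muscle genes, in each library with the mean as a line; Fyco1-/- stands left of WT and each panel starts at 0. Of the sums drawn, those of mesenchyme and skeletal muscle are separated by genotype, WT A is the highest of the endothelial and mural sums, and WT B is far above the rest in the macrophage and muscle panels.

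The mesenchyme markers were the 1 class whose sum over all listed members was separated by genotype. Their summed level was 14.9, 17.2 and 15.2 FPKM in Fyco1-/- and 21.2, 20.3 and 18.3 FPKM in WT. The groups did not overlap, and the ratio of the means was 0.789. Pdgfra made up most of this sum, and without it the levels were 3.99, 4.26 and 4.37 FPKM in Fyco1-/- and 7.15, 5.15 and 5.76 FPKM in WT, a ratio of 0.699. None of the 5 tested mesenchyme markers was called by limma, 4 had an unadjusted p under 0.05 and all 4 were lower, and the median log2 fold change was -0.43. Of all tested genes 24.4% had such a p and 15.1% had it and were lower, and the median log2 fold change over them was -0.04.

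The 2 chains of type I collagen parted from each other. Col1a1, the alpha-1 chain, had 0.188, 0.380 and 0.488 FPKM in Fyco1-/- and 1.45, 0.596 and 0.881 FPKM in WT. Every Fyco1-/- library lay below every WT library, and the ratio of the Fyco1-/- mean to the WT mean was 0.361. The log2 fold change was -0.77 with a standard error of 0.23 and missed the threshold (limma adjusted p = 0.0697), but passed it without WT B at 0.0455, with 0.208 without WT A. In the authors' deposited table its adjusted p was 0.00149. Col1a2, the alpha-2 chain, had 1.73, 1.90 and 1.94 FPKM in Fyco1-/- and 1.98, 1.48 and 2.16 FPKM in WT. Its groups overlapped, and its log2 fold change of 0.00, whose sign changed with the scaling, had a 95% interval from -0.29 to 0.29.

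Set against Col1a2, Col1a1 stood at 10.9, 20.0 and 25.2% in Fyco1-/- and at 73.2, 40.3 and 40.8% in WT. Col3a1, the fibrillar collagen that accompanies type I collagen in soft tissue, stood at 22.6, 23.3 and 27.3% of Col1a2 in Fyco1-/- and at 61.1, 52.6 and 29.6% in WT. Neither ratio overlapped between the genotypes, though WT C lay close to Fyco1-/- C for Col3a1. Col1a1 and Col3a1 were already separated in their own FPKM, so these ratios are no separate test. Col3a1 itself had 0.391, 0.442 and 0.530 FPKM in Fyco1-/- and 1.21, 0.779 and 0.640 FPKM in WT. Its log2 fold change was -0.51 (unadjusted p = 0.0180, limma adjusted p = 0.114), with an adjusted p of 0.0283 in the authors' deposited table. Both collagens are rare here, with an estimated 23 to 162 reads per library for Col1a1 and 72 to 202 for Col3a1.

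**Figure D4:**
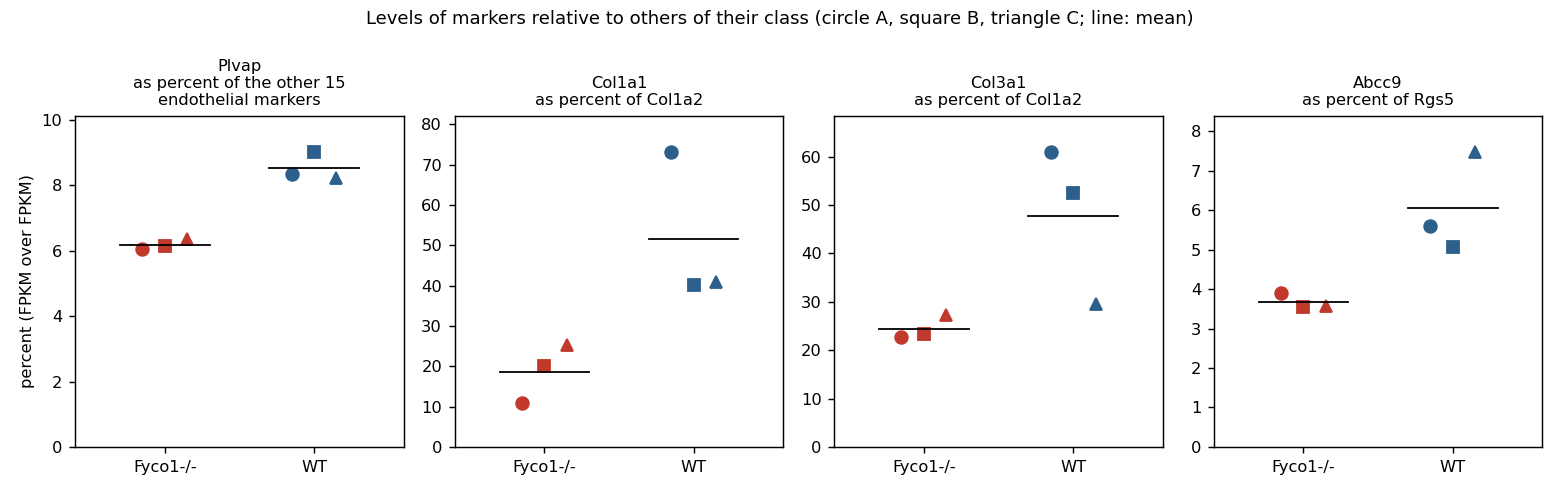
Levels of 4 markers as a percentage of another marker or markers of their class, in each library with the mean as a line; Fyco1-/- stands left of WT and each panel starts at 0. The Fyco1-/- values lie below the WT values in all 4 panels, by the narrowest margin for Col3a1, where Fyco1-/- C has 27.3% and WT C 29.6%. Each of the 4 markers was already separated by genotype in its own FPKM, so the panels are no separate test.

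Foxc1, a forkhead transcription factor needed for the anterior segment of the eye, had 1.58, 1.37 and 1.21 FPKM in Fyco1-/- and 2.16, 2.08 and 1.86 FPKM in WT. The groups were apart, and the log2 fold change of -0.43 (standard error 0.12) missed the threshold with a limma adjusted p of 0.0577, and of 0.0513 to 0.171 under the alternatives. Pdgfra, the PDGF receptor of mesenchyme and of lens epithelium, had 10.9, 12.9 and 10.8 FPKM in Fyco1-/- and 14.1, 15.2 and 12.5 FPKM in WT. Fyco1-/- B exceeded WT C, and the log2 fold change was -0.26 (unadjusted p = 0.0157, limma adjusted p = 0.107). In the authors' deposited table Pdgfra had an adjusted p of 0.0497.

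The summed level of 5 epithelial genes (Foxe3, Cdh1, Pax6, Gja1 and Cdh2) was 237, 230 and 213 FPKM in Fyco1-/- and 293, 285 and 246 FPKM in WT, with no overlap. By gene, Pax6 and Cdh2 were separated, Foxe3 and Cdh1 overlapped, and Gja1 had the opposite sign at 0.22 (limma adjusted p = 0.200). The part of the epithelium in the Pdgfra values was not tested. Pax6, the regulator of eye formation, fell by 0.19 on the log2 scale (limma adjusted p = 0.0398). That call was lost without any single library except WT C, without the filter and with median-of-ratios scaling.

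The 3 mesenchyme markers below the test limit were nearly absent. Foxc2, the paralogue of Foxc1, did not exceed 0.155 FPKM in any library, and the proteoglycans Dcn and Lum did not exceed 0.217 and 0.072 FPKM. Lum was at 0 in Fyco1-/- A and B, and its highest value rests on an estimated 3.5 reads. These 3 were not tested.

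Of 20 further mesenchyme genes 19 were in the table, 7 were tested and 2 were called, both lower, where 8.43% of all tested genes were called and 5.02% as lower. Fn1, fibronectin, had 2.25, 2.26 and 2.23 FPKM in Fyco1-/- and 3.60, 3.37 and 3.30 FPKM in WT. It fell by 0.51 on the log2 scale (limma adjusted p = 0.00738), with the 2 groups far apart for their spread. Col6a3, a chain of type VI collagen, had 5.24, 1.86 and 2.22 FPKM in Fyco1-/- and 11.6, 10.5 and 11.5 FPKM in WT. It fell by 1.81 on the log2 scale (limma adjusted p = 0.0316), but the call was lost without any one library except Fyco1-/- A, with adjusted p-values from 0.0721 to 0.123. Ogn, the small proteoglycan osteoglycin, was the most abundant of the list, with 63.1, 69.5 and 66.1 FPKM in Fyco1-/- and 74.7, 75.6 and 70.8 FPKM in WT. Its groups did not overlap, and its limma adjusted p was 0.0815. All 7 tested genes of the list had a log2 fold change below 0, with a median of -0.22, while 59.9% of all tested genes were below 0.

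The macrophage markers were low, and their sum turned on 1 gene in 1 library. The class sum was 4.63, 6.16 and 4.90 FPKM in Fyco1-/- and 4.64, 29.0 and 3.76 FPKM in WT. Lyz2, the lysozyme of macrophages and neutrophils, supplied most of the WT B value. It had 0.503, 0.526 and 0.540 FPKM in Fyco1-/- and 0.554, 23.1 and 0.0907 FPKM in WT (log2 -1.26, standard error 1.59, limma adjusted p = 0.700). Without Lyz2 the sums were 4.13, 5.64 and 4.36 FPKM in Fyco1-/- and 4.08, 5.97 and 3.67 FPKM in WT, with the groups overlapping and a ratio of 1.03.

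C1qb, a subunit of complement C1q made by macrophages, was also high in WT B. It had 0.585, 0.612 and 0.435 FPKM in Fyco1-/- and 0.591, 2.24 and 0.422 FPKM in WT, and its log2 fold change was -0.43 with all libraries and 0.05 without WT B. Acta1, the actin of skeletal muscle, had at most 1.69 FPKM in Fyco1-/- and 4.61, 21.7 and 3.49 FPKM in WT. Lcn2 and Csn3, named after their values were seen, were at 0 in all Fyco1-/- libraries, and had 2.17 and 2.50 FPKM in WT B and at most 0.0836 FPKM in WT A and C. The part of such tissue in the WT B values of Lyz2 and C1qb was not tested. Lyz2 is also near-identical to Lyz1 over 1264 bases, which the table lists at 0 in all but 1 library.

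Pf4 was the macrophage marker with the smallest p. It encodes platelet factor 4, a chemokine of platelets and of tissue-resident macrophages. It had 2.08, 3.50 and 2.24 FPKM in Fyco1-/- and 0.898, 1.19 and 2.06 FPKM in WT. All Fyco1-/- values were above all WT values, though Fyco1-/- A and WT C nearly met. The log2 fold change was 0.74 with a standard error of 0.24 (unadjusted p = 0.0133), and it missed the threshold at a limma adjusted p of 0.0996, but passed at 0.0260 without WT C, with 0.245 without WT A. These levels rest on an estimated 11 to 49 reads per library.

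C1qa, another subunit of C1q, did not share the sign of Pf4. It had 1.02, 1.13 and 1.32 FPKM in Fyco1-/- and 1.97, 1.58 and 0.828 FPKM in WT (log2 -0.20, limma adjusted p = 0.613), and the groups overlapped. Without WT A its log2 fold change was -0.01. Csf1r, the receptor for the macrophage growth factor CSF1, had 0.124, 0.229 and 0.269 FPKM in Fyco1-/- and 0.411, 0.742 and 0.183 FPKM in WT. It was not tested, and 873 bases of its exons overlap Hmgxb3 on the other strand. Mrc1, the mannose receptor, and Cx3cr1, the fractalkine receptor, did not exceed 0.287 and 0.0924 FPKM. Of 20 further macrophage genes 19 were in the table, 7 were tested and none was called by limma. Where 24.4% of all tested genes had an unadjusted p under 0.05, 1 of the 7 did. That gene was Cd163, a scavenger receptor of resident macrophages. Cd163 had 0.709, 0.673 and 0.539 FPKM in Fyco1-/- and 0.326, 0.521 and 0.307 FPKM in WT (log2 0.37, limma adjusted p = 0.205), with no overlap between the groups. The list as a whole leaned the other way, with 5 of the 7 log2 fold changes below 0, 2 above and a median of -0.25. P2ry12 was separated in the lower direction, with 0.613, 0.788 and 0.833 FPKM in Fyco1-/- and 0.926, 0.852 and 1.18 FPKM in WT (limma adjusted p = 0.334).

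**Figure D5:**
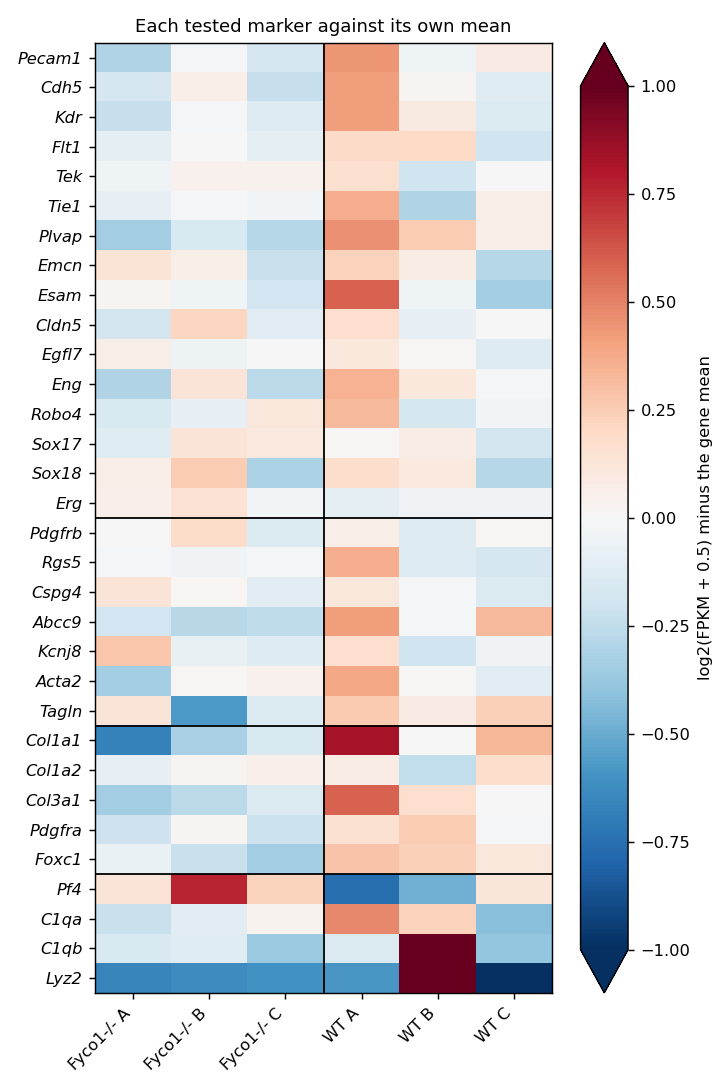
Each tested marker in each library as log2(FPKM + 0.5) minus the gene's mean over the 6 libraries, with rows in the order endothelium, mural cells, mesenchyme and macrophages and Fyco1-/- left of WT; colours are capped at 1 in either direction. Most endothelial rows are red in WT A, Col1a1 and Col3a1 are blue in Fyco1-/- while Col1a2 is near its mean there, and Lyz2 and C1qb are dark red in WT B.

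The spread between pools differed between the classes. The median coefficient of variation over tested endothelial markers was 11.0% in Fyco1-/- and 19.3% in WT, and for mural markers it was 15.3% and 20.1%. Mesenchyme markers had 13.4% in Fyco1-/- and 18.8% in WT. Macrophage markers had 15.2% in Fyco1-/- and 68.2% in WT. WT A had the highest value for 20 of the 39 markers and Fyco1-/- C and WT C for 2 each.

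The signals that act between lens and vessels ranged widely in level, with means over the 6 libraries from 0.0525 FPKM for Ndp to 125 FPKM for Wnt7b. Of 33 such genes 25 were tested and 2 were called, both lower, a share of 8%. Of all tested genes 8.43% were called, and 5.02% were called lower. At an unadjusted p under 0.05 there were 7, all lower, where 24.4% of all tested genes had such a p and 15.1% were lower. The log2 fold change was below 0 for 22 and above 0 for 3, with a median of -0.13, while 59.9% of all tested genes were below 0. Vegfa, the growth factor that the lens makes for its vessels, had 46.8, 35.2 and 38.1 FPKM in Fyco1-/- and 43.6, 47.1 and 44.5 FPKM in WT. Fyco1-/- A lay among the WT values, and the gene was not called (log2 -0.18, limma adjusted p = 0.281). Wnt7b, a Wnt ligand which macrophages use in mouse to trigger regression of hyaloid vessels and which lens epithelium also makes, had 126, 118 and 116 FPKM in Fyco1-/- and 126, 135 and 129 FPKM in WT. It was separated at the margin of the A pools and had a limma adjusted p of 0.126.

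Sema3a, a secreted guidance cue that repels axons and acts on vessels through Nrp1, was called. It had 10.9, 12.2 and 11.8 FPKM in Fyco1-/- and 16.5, 15.2 and 14.7 FPKM in WT, without overlap, and fell by 0.39 on the log2 scale (limma adjusted p = 0.00702). Jag1, a Notch ligand made by lens cells as well as endothelium, had 58.3, 57.7 and 55.4 FPKM in Fyco1-/- and 65.4, 70.1 and 67.4 FPKM in WT. It fell by 0.24 on the log2 scale (limma adjusted p = 0.00866). Tgfb2, a growth factor of ocular tissue, did not overlap either, with a limma adjusted p of 0.0667. Angpt2, the angiopoietin that loosens vessels, averaged 4.36 ± 0.422 FPKM in Fyco1-/- and 3.76 ± 0.304 FPKM in WT (SD, n = 3 each), with overlap between the genotypes and a limma adjusted p of 0.270.

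In the authors' deposited table, from DESeq2, 34 of the 39 markers had an adjusted p, and 5 of them (14.7%) were under 0.05. All 5 were lower in Fyco1-/-, namely Plvap, Abcc9, Col1a1, Col3a1 and Pdgfra, and none was higher. Over all genes with an adjusted p in the authors' deposited table, 9.37% were called and 4.15% were lower. Plvap was thus called by both tests, with an adjusted p of 0.0339 in the authors' deposited table, and the other 4 by DESeq2 only. Both tests read the same 6 libraries, so neither is a replicate of the other.

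RNA of other tissues at the lens surface was compared in the same way. The summed level of 7 erythroid genes was 241, 102 and 114 FPKM in Fyco1-/- and 126, 81.4 and 195 FPKM in WT, so the libraries with the most globin RNA were Fyco1-/- A and WT C and not WT A. Summed levels of retina and neuron genes (2.47 to 3.97 FPKM in Fyco1-/- and 3.35 to 5.04 in WT) overlapped between the genotypes. So did those of pigment cell genes, at 1.21 to 1.61 FPKM in Fyco1-/- and 1.07 to 1.40 FPKM in WT. Cornea and surface ectoderm genes summed to 0.704 to 2.38 FPKM in Fyco1-/- and 0.712 to 2.11 FPKM in WT. Skeletal muscle genes differed from these lists, since their sums did not overlap between the genotypes. They came to 2.93 to 4.85 FPKM in Fyco1-/- and 6.82 to 43.1 FPKM in WT. The part of such tissue in the marker values was not tested. All 39 markers together came to 0.0131 to 0.0148% of each Fyco1-/- library's total FPKM and 0.0136 to 0.0182% of each WT library's.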

How the data were processed

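Total RNA of pooled lenses was sequenced as paired reads after NEB Next Ultra preparation, per the labels. Per the submitters' processing notes, STAR 2.5 and HTSeq 0.6.1 were used with GRCm38/mm10, and the authors deposited FPKM values. The deposited p-value, adjusted p-value and log2 fold change columns come from the authors' DESeq2 run. Annotation, strand setting and scaling total are not given in the sources used here. Without counts, no counting intervals are given, and depths are estimates from the steps between small values (43.7 to 47.4% within 0.05 of a whole read).

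Here limma 3.58.1 in R 4.3.3 (trend, robust moderation, genotype as the only term, two-sided) was run on log2(FPKM + 0.5) for genes with a mean of at least 0.5 FPKM, after a check on simulated data. Ratios are of mean FPKM. Of all symbols, 21 occur more than once. Positions come from GENCODE M21, and near-identical transcripts (95% over 100 bases) from blastn 2.17.0. Promoters of 24 markers were found in RefSeq.

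Markers and lists were chosen with earlier results of these data known. Full values are given for called markers, the 3 most abundant of each class, the 2 of smallest p, those separated by genotype at an unadjusted p under 0.05, and called or leading genes of related lists. A few others, such as Kcnj8, Erg, Csf1r, Higd1b, Ogn, Vegfa, Wnt7b, Tgfb2 and Angpt2, were chosen after their values were seen. Same-lettered pools did not deviate together (r = -0.03, 0.03 and 0.03), so letters do not pair them. Alternatives were pseudocounts, filters, moderation, scalings, the block, the authors' deposited calls and each library left out. One list of another tissue's genes is not reported here.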

Additional observations from a re-analysis of the deposited data

How the results depend on the processing

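The calls depended on the processing more than the directions did. Without a filter on low values, 568 genes were called (322 lower, 246 higher), and no marker (0) and no endothelial marker (0) was. Leaving out 1 library gave 611 to 870 genes, 325 to 538 lower and 264 to 334 higher. Median-of-ratios scaling gave 626 higher and 472 lower, against 410 and 602 by limma without rescaling. The authors' deposited table gave 682 higher and 542 lower. The replicate block, which the letters do not warrant, gave 929 genes and 2 lower markers, 1 of them in mesenchyme (Pdgfra, adjusted p = 0.0476). The authors' deposited table called 5 markers, with 1 mural and 3 of mesenchyme. Leaving out 1 library gave 0 to 2 markers, 0 to 1 lower and 0 to 1 higher, with 0 to 1 each of endothelium, mesenchyme and macrophages, and a marker median log2 fold change of -0.28 to -0.0092. The log2 ratio of the mesenchyme sum was -0.52 without Pdgfra, and that of the macrophage sum was 0.042 without Lyz2, its most abundant member. Both alternatives were chosen after seeing the data. With 1 library left out the macrophage sum ranged from -1.69 to 0.32. The causes were not tested. Signs turned for some genes that were not called. With 1 library left out, log2 fold changes ran from -0.73 to 0.053 for C1qb, -0.17 to 0.026 for Cldn5, -0.13 to 0.086 for Col1a2, -0.057 to 0.058 for Egfl7, -0.080 to 0.48 for Krt15, -0.056 to 0.10 for Pdgfrb and -0.14 to 0.13 for Rgs5. Col1a2 was 0.00039 with a pseudocount of 0.1, 0.070 with quantile normalization, 0.036 with median-of-ratios scaling, 0.0029 without crystallins and 0.028 in the authors' deposited table, where Cldn5 was 0.0023. Rgs5 was 0.0052 with median-of-ratios scaling. Few reads limit Lum, Foxc2, Cx3cr1 and Dcn.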
